A study of Homo sapiens with 2 samples.

Results

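The genes described here encode proteins of the mitochondrial ribosome, chosen by symbol (MRPL or MRPS followed by a number and at most 1 letter from A to C). The array's annotation assigned such a symbol to 75 of 19775 genes, read by 140 of 54675 probe sets. By name, 48 of them (83 probe sets) belong to the large subunit (MRPL) and 27 (57 probe sets) to the small subunit (MRPS). They were measured in KG1, a human acute myeloid leukaemia cell line. The siRNA-Tbet cells had received 1.98 µg of an siRNA against T-bet, the transcription factor encoded by TBX21, by electroporation. The siRNAc cells had received 1.98 µg of a control siRNA in the same way. Both groups then rested for 5 h and were given interleukin-18 at 10 ng/ml for 12 h, so the controls were stimulated too, and no unstimulated cells are among the samples analysed here. Each group is 1 Affymetrix array, so no difference has a replicate check, no p-value was computed and the number of arrays limits the precision.

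Mitochondrial ribosomes translate the few messages of the mitochondrial genome, which encode core subunits of the respiratory chain and of ATP synthase. Their RNAs come from mitochondrial DNA, whereas every protein of the particle is encoded in the nucleus, made in the cytosol and imported. The small subunit binds the message and decodes it, and the large subunit joins the amino acids and releases the chain at the inner membrane. Some of the proteins descend from those of bacterial ribosomes, and others are found in mitochondria alone.

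The values are MAS5 signals in arbitrary units, with an equal trimmed mean on both arrays. A signal was taken as measured where it exceeded 146.4, the higher of the array medians, on at least 1 array, and lower signals were raised to that floor. The chosen probe set of a gene is its brightest one, cross-hybridising types last. By this measure 12126 genes were measured on the array. TBX21, the targeted gene, read 1839 units with siRNA-Tbet, against 3581 with siRNAc, 1.95-fold lower. CD34, a defining antigen of KG1, had 17130 with siRNA-Tbet and 15839 with siRNAc. Of 7 KG1 markers on the array 5 were measured, KIT and SPN being below the floor on their chosen probe sets. Of 6 genes listed as markers of other cell types 2 were measured, CD3E at 250 with siRNA-Tbet and 211 with siRNAc, and PECAM1 at 2853 and 2935. Whether other cells were present was not tested, and neither signal is read as a sign of them.

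All 75 mitochondrial ribosomal protein genes were measured on both arrays, and none differed by 1.5-fold between them on its chosen probe set. Dimmer probe sets of MRPL19, MRPL20, MRPL52, MRPL57 and MRPS31 did. Their log2 ratios of siRNA-Tbet over siRNAc were 0.76, 0.64, -0.61, -0.65 and -0.61. Signals of the chosen probe sets of the 75 genes ran from 1489 to 30708. Of the 75 genes, 47 (62.7%) were higher and 28 lower with siRNA-Tbet, while 46.4% of all measured genes were higher and 53.6% lower. The median log2 ratio of siRNA-Tbet over siRNAc was 0.03 (2.19% higher), against -0.02 over all measured genes. Each array reads RNA pooled from a culture, so a change in the share of cells that make a transcript and a change per cell cannot be told apart.

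On the chosen probe sets, to which the counts below refer, the extremes were a 30.0% higher signal and a 17.7% lower one. A signal at least 25% higher was seen in 3 members, and in 7.68% of all measured genes. A signal at least 20% lower, the same step on the log scale, was seen in 0 members, and in 10.9% of all measured genes. At 1.1-fold the counts were 14 members higher (21.4% of all measured genes) and 4 lower (28.1%), and the other 57 lay within 1.1-fold. At 1.5-fold there were 0 members on either side, where 1.96% of all measured genes were higher and 2.88% lower. Among the 5826 measured genes in the signal range of the members, 46.3% were higher and 53.7% lower. In that range 14.4% were at least 1.1-fold higher and 20.4% at least 1.1-fold lower, 2.64% were at least 25% higher and 3.96% at least 20% lower. At 1.5-fold only 18 of these 5826 genes were higher and 26 lower.

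**Figure D1:**
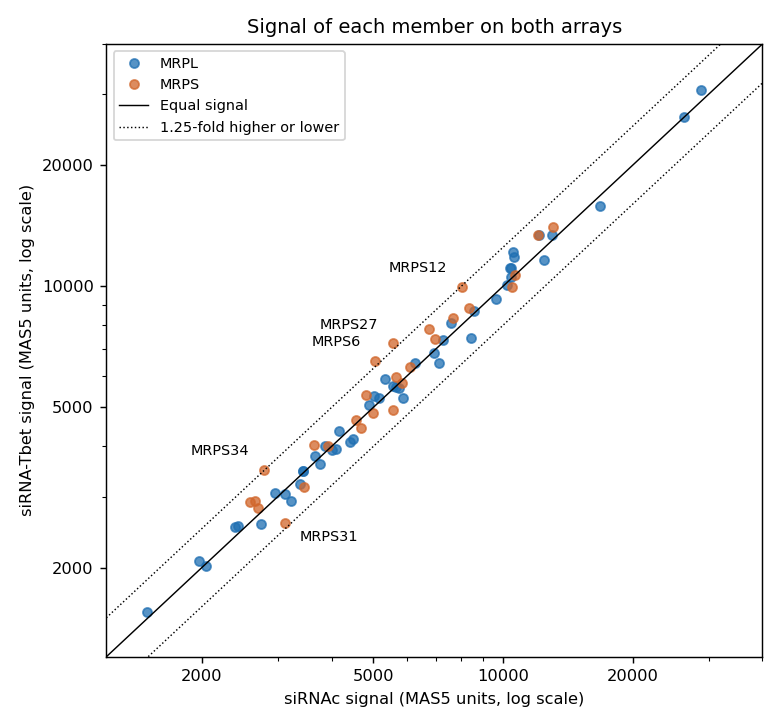
Signal of the chosen probe set of each of the 75 members with siRNA-Tbet (vertical, MAS5 units, log scale) against siRNAc (horizontal, MAS5 units, log scale). Points are genes, MRPL in blue and MRPS in orange, and the lines mark equal signal and signals 25% higher or 20% lower. The points lie close to the line of equal signal, with MRPS27, MRPS6 and MRPS34 past the upper dotted line.

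Over the whole array the ratio varied with the signal level, and the members lay in its upper deciles. In decile 10, the brightest, 17 members had a median log2 ratio of 0.04 and all 1213 genes there also had 0.04. In the decile below, 25 members had a median of 0.05 against -0.01 for all genes of that decile. The medians were 0.02 for 17 members against -0.03 for all genes in decile 8, and 0.05 for 13 members against -0.04 in decile 7. The remaining 3 members, in decile 6, had 0.06 against -0.03. With a lowess trend on the signal removed, the median of the members was 0.04.

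By name, the small subunit had the higher ratios. The 48 MRPL genes had a median log2 ratio of 0.02 (1.20% higher), with 28 higher and 20 lower with siRNA-Tbet and a range from -0.18 to 0.21. The 27 MRPS genes had a median of 0.09 (6.17% higher), with 19 higher and 8 lower and a range from -0.28 to 0.38. The difference of the medians, MRPL minus MRPS, was -0.07 on the log2 scale. All 3 members at least 25% higher were MRPS genes, as were 10 of the 14 that were at least 1.1-fold higher, against 4 MRPL genes.

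That difference depended on which probe sets were read. With plain probe sets alone (the type designed for 1 transcript), measured for 26 MRPL and 16 MRPS genes, the medians were 0.02 and 0.01 and the difference 0.0038. With the median over the measured probe sets of each gene they were 0.02 for MRPL and 0.05 for MRPS, a difference of -0.03. Despite their names, MRPS18A and MRPS30 are built into the large subunit of the human particle. With these counted as large, the medians were 0.02 for 50 large-subunit genes and 0.09 for 25 small-subunit genes.

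**Figure D2:**
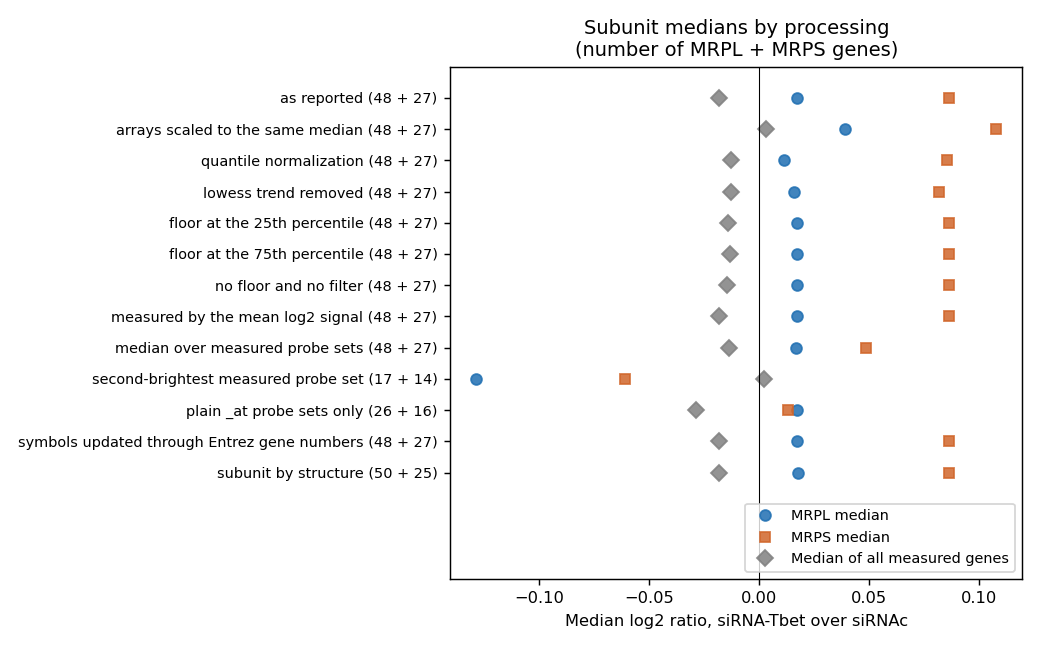
Median log2 ratio of siRNA-Tbet over siRNAc (horizontal) of the MRPL genes (circles), the MRPS genes (squares) and all measured genes (diamonds) as reported and under 12 other ways of processing, with the numbers of MRPL and MRPS genes in brackets. The MRPL and MRPS medians are 0.02 and 0.09 as reported, nearly equal with plain probe sets alone, and below 0 (-0.13 and -0.061) with the second-brightest measured probe set.

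**Figure D3:**
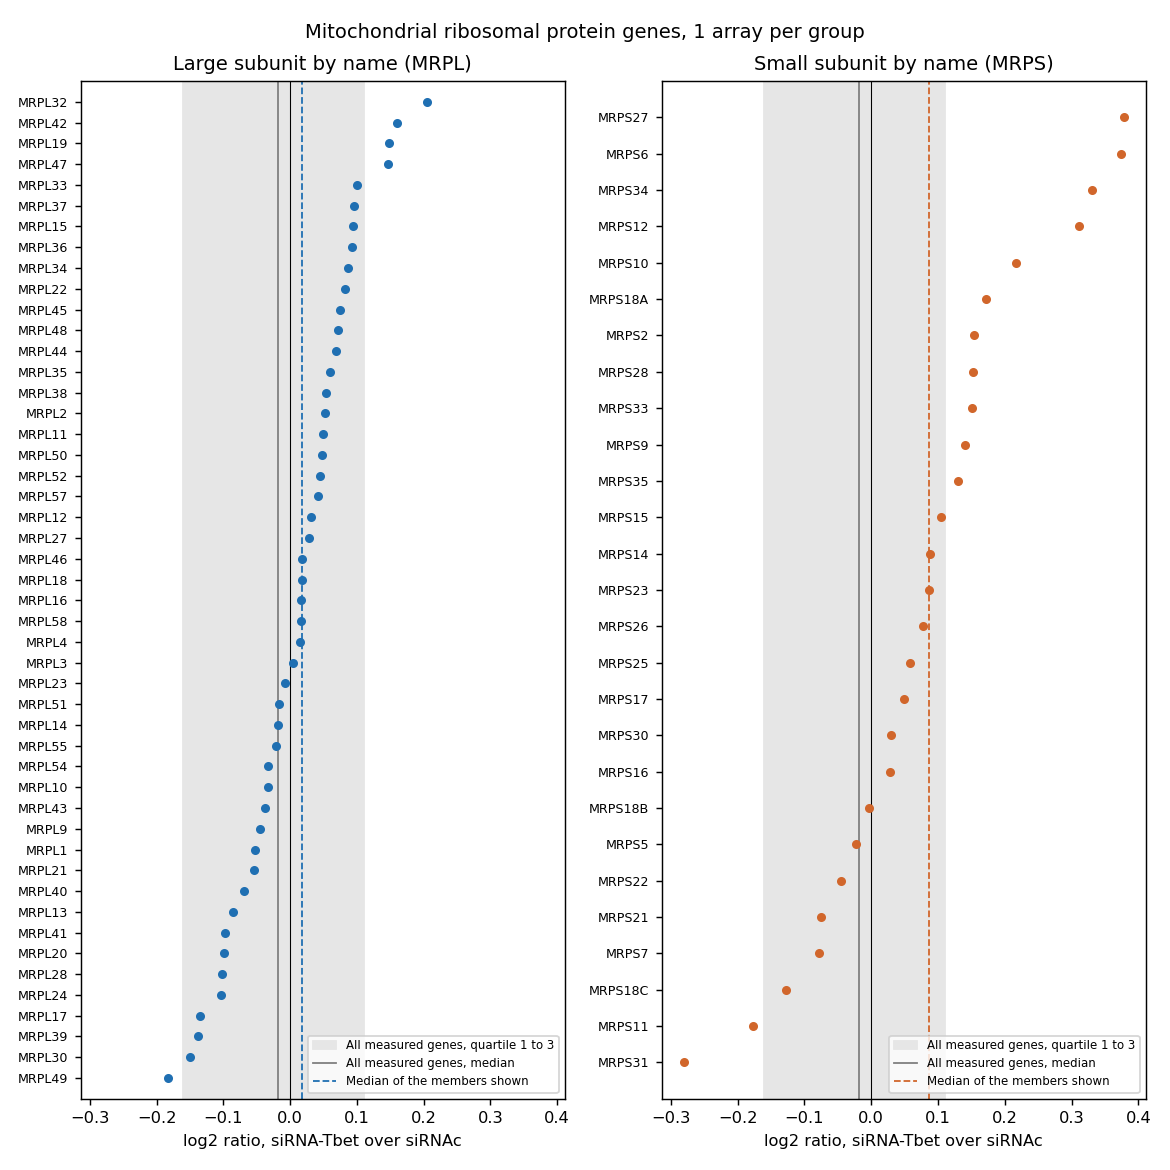
The log2 ratio of siRNA-Tbet over siRNAc (horizontal) for each member, MRPL genes on the left and MRPS genes on the right, 1 point per gene, ordered by ratio. The grey band is the interquartile range of all 12126 measured genes, the grey line their median of -0.02, and the dashed line the median of the genes shown (0.02 for MRPL, 0.09 for MRPS).

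The highest ratios among the members belonged to 4 small-subunit genes. MRPS27, a pentatricopeptide repeat protein of the small subunit, read 7225 with siRNA-Tbet and 5559 with siRNAc (1.30-fold higher, log2 ratio 0.38). MRPS6, the homologue of a bacterial protein of the platform, had 6537 with siRNA-Tbet and 5045 with siRNAc (1.30-fold higher, log2 ratio 0.37). MRPS34, a mitochondrial addition needed for a stable small subunit, had 3496 with siRNA-Tbet and 2780 with siRNAc (1.26-fold higher, log2 ratio 0.33). Each of these 3 genes rests on a single measured probe set of the plain type, so no other probe set of the gene bears on its value.

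MRPS12, the decoding-centre protein whose bacterial homologue is the site of streptomycin resistance mutations, had 9970 with siRNA-Tbet and 8035 with siRNAc (1.24-fold higher, log2 ratio 0.31). Its 3 other measured probe sets gave log2 ratios of -0.0017, 0.06 and -0.04, at signals from 113 to 1035. The high value of MRPS12 was thus seen on 1 probe set of 4.

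The sequences upstream of these 4 genes, and of MRPS31 and MRPL49, the members with the lowest ratios, are shown because these genes lie at both ends of the range. Each is the 250 bases before the first-listed start site, 5′ to 3′ on the gene's own strand, from RefSeq (GRCh38.p14). Capitals mark matches on either strand to any of 5 motifs, CCGGAAG for GABP and related ETS factors, GCGC, any base and TGCGC in a row for NRF1, AAGATGGC for YY1, the E-box CACGTG bound by MYC, and GGTGTGA for T-box factors such as T-bet. GABP, NRF1 and YY1 are known regulators of nuclear genes for mitochondria.
MRPS27, chr5:72320241-72320490, minus strand: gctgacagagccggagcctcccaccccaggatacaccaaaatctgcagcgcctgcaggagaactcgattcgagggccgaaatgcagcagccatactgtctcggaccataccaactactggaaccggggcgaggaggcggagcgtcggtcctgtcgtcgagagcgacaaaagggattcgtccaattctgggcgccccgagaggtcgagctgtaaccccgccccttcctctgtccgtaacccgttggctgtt
MRPS6, chr21:34073328-34073577, plus strand: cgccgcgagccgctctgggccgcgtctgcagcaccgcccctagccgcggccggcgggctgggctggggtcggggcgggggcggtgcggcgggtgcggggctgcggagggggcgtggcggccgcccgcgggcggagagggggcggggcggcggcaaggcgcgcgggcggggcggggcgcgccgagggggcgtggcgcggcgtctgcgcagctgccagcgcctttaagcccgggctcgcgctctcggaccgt
MRPS34, chr16:1773135-1773384, minus strand: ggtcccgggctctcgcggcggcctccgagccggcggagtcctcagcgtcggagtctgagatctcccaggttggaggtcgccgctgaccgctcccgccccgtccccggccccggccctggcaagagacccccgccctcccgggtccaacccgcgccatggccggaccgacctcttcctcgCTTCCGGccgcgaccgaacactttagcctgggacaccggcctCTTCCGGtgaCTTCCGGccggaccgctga
MRPS12, chr19:38930694-38930943, plus strand: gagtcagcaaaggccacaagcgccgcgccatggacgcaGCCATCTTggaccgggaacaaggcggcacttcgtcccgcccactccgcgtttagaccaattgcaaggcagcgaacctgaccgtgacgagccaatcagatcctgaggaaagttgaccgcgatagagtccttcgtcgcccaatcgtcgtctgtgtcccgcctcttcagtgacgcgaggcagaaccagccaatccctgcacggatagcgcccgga
MRPS31, chr13:40771191-40771440, minus strand: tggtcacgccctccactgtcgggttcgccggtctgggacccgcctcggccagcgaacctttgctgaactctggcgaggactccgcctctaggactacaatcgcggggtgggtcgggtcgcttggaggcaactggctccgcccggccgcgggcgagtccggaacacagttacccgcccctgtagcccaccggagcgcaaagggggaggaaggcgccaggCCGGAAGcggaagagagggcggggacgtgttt
MRPL49, chr11:65121933-65122182, plus strand: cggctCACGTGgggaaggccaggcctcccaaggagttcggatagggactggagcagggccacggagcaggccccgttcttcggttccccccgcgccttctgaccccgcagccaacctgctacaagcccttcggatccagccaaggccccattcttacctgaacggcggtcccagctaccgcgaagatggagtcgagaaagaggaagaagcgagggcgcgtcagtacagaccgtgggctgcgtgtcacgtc
MRPS34 held 3 matches to the GABP motif, at positions -71, -29 and -19 from the start site, and MRPS31 held 1 at -32. MRPS12 held 1 match to the YY1 motif at -212 and MRPL49 held 1 E-box at -245. The windows of MRPS27 and MRPS6 held 0 matches to these letters.

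Upstream windows were at hand for 67 of the 75 members, those without being MRPL2, MRPL10, MRPL13, MRPL15, MRPL21, MRPL23, MRPL35 and MRPS28. The GABP motif occurred in 22 of the 67 members (32.8%), 13 of 41 MRPL and 9 of 26 MRPS genes, against 8.82% of 27305 windows of all genes and 11.8% of 15842 protein-coding ones. NRF1 letters occurred in 8 members (11.9%), against 5.53% of all windows and 7.65% of protein-coding ones. YY1 letters occurred in 5 (7.46%), against 1.37% and 1.39%. The E-box occurred in 6 (8.96%), against 6.49% and 7.84%. The T-box letters occurred in 1 member, MRPS22 (1.49%), against 2.72% of all windows and 2.52% of protein-coding ones. Matches to the GABP and YY1 motifs can overlap at AAG. A match is a description of the letters, and its absence says only that they are not in the window. The median log2 ratio was 0.01 in the 22 members with the GABP motif and 0.04 in the others. It was 0.06 with and 0.03 without the NRF1 letters, 0.15 with and 0.03 without those of YY1, and 0.08 with and 0.03 without the E-box, over 8, 5 and 6 members with the motif.

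Other MRPS genes were higher by smaller amounts. MRPS10, a protein of the small subunit's head, had 7836 with siRNA-Tbet and 6743 with siRNAc (log2 ratio 0.22), with 0.31 on its second probe set and -0.0075 on a cross-hybridising one. MRPS2, homologue of a bacterial small-subunit protein, had 5356 with siRNA-Tbet and 4814 with siRNAc (log2 ratio 0.15). MRPS35 had 8351 with siRNA-Tbet and 7635 with siRNAc. MRPS28, MRPS33, MRPS9 and MRPS35 followed with log2 ratios of 0.15, 0.15, 0.14 and 0.13, each read by a single probe set. MRPS15, MRPS14, MRPS23, MRPS26, MRPS25 and MRPS17 lay between 0.05 and 0.10, and MRPS16 at 0.03.

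MRPS5, whose bacterial homologue lines the entrance for the message, had 5739 with siRNA-Tbet and 5828 with siRNAc (log2 ratio -0.02). Its 2 dimmer measured probe sets gave 0.13 and -0.09, on both sides of 0.

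The lowest ratio of all members was also in the small subunit. MRPS31, a mitochondrial addition to the small subunit, had 2574 with siRNA-Tbet and 3126 with siRNAc on its chosen probe set (1.21-fold lower, log2 ratio -0.28). Its second probe set, at 2713 with siRNA-Tbet and 2630 with siRNAc, gave 0.04, and a dimmer one, at 171 and 261, gave -0.61. RefSeq lists 3 pseudogenes of MRPS31, and whether its probe sets read them as well was not tested.

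MRPS11, a protein of the platform, had 4918 with siRNA-Tbet and 5561 with siRNAc (log2 ratio -0.18). Its second probe set had 714 with siRNA-Tbet and 945 with siRNAc (log2 ratio -0.41). It was 1 of 2 members whose measured probe sets all lay at least 1.1-fold to the same side. Of the remaining lower MRPS genes, MRPS7, MRPS21 and MRPS22 had log2 ratios of -0.08, -0.08 and -0.05, the last from probe sets of the cross-hybridising type alone.

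The MRPS18 paralogues, 3 relatives of a single bacterial protein that sit at different places in the particle, lay on both sides of 0. MRPS18A had 2909 with siRNA-Tbet and 2582 with siRNAc (log2 ratio 0.17), but -0.10 on its second probe set. MRPS18B had 10651 with siRNA-Tbet and 10671 with siRNAc (log2 ratio -0.0027), and -0.08 on its second. MRPS18C had 3168 with siRNA-Tbet and 3461 with siRNAc (log2 ratio -0.13), and its 2 other probe sets were below the floor. MRPS30, the other large-subunit protein with a small-subunit name, had 4654 with siRNA-Tbet and 4561 with siRNAc (log2 ratio 0.03). Its dimmer probe sets gave -0.17 and 0.11.

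Among the MRPL genes the ratios were closer together. MRPL32, whose yeast and mouse forms are matured by the m-AAA protease before they join the ribosome, had 12184 with siRNA-Tbet and 10567 with siRNAc (1.15-fold higher, log2 ratio 0.21). MRPL42, a mitochondrial addition, had 11828 with siRNA-Tbet and 10586 with siRNAc (log2 ratio 0.16), and its other probe sets gave 0.08 and 0.07. MRPL19 had 5886 with siRNA-Tbet and 5315 with siRNAc (log2 ratio 0.15), with -0.14 and 0.76 on dimmer probe sets.

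MRPL47, at the exit of the peptide tunnel, was the other member whose measured probe sets all lay at least 1.1-fold to the same side. It had 13445 with siRNA-Tbet and 12150 with siRNAc (log2 ratio 0.15), and 271 and 208 on its second probe set (log2 ratio 0.38).

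The lowest of the large subunit was MRPL49, with 7417 with siRNA-Tbet and 8416 with siRNAc (1.13-fold lower, log2 ratio -0.18) on its single probe set. MRPL30 had 5281 with siRNA-Tbet and 5857 with siRNAc (log2 ratio -0.15). Its 4 other probe sets gave -0.13, 0.15, 0.03 and 0.17, so its direction depended on the probe set. MRPL28, MRPL20, MRPL41 and MRPL13 had log2 ratios from -0.10 to -0.08.

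By site, the large subunit showed no common direction beyond small shifts. The stalk that recruits translation factors is built by MRPL10, MRPL11 and MRPL12. MRPL10 had 5589 with siRNA-Tbet and 5720 with siRNAc, MRPL11 had 5055 and 4887, and MRPL12 had 5276 and 5163, with log2 ratios of -0.03, 0.05 and 0.03. All 3 lay within 1.1-fold.

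The central protuberance, which faces the small subunit's head, had 6 of 7 genes higher and a median of 0.03. Its highest was MRPL48 (4371 with siRNA-Tbet and 4161 with siRNAc, log2 ratio 0.07) and its lowest MRPL40 (3217 and 3376, log2 ratio -0.07). MRPL18 had 10568 with siRNA-Tbet and 10440 with siRNAc, MRPL27 had 5652 and 5541, and MRPL38 had 4003 and 3856. MRPL46 had 3469 with siRNA-Tbet and 3427 with siRNAc, and MRPL52 had 3785 and 3669. The log2 ratios of these 5 genes lay between 0.02 and 0.05. All 7 were within 1.1-fold on their chosen probe sets. Dim second probe sets gave -0.61 for MRPL52 (119 with siRNA-Tbet and 224 with siRNAc) and -0.14 for MRPL38 (138 and 162).

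Around the polypeptide exit the median was 0.03, 4 genes being higher and 4 lower. MRPL45, which holds the ribosome to the inner membrane, had 2073 with siRNA-Tbet and 1969 with siRNAc (log2 ratio 0.07). MRPL44, which has a fold like that of RNase III enzymes, had 2543 with siRNA-Tbet and 2426 with siRNAc (log2 ratio 0.07). Its second probe set, of the cross-hybridising type, had 616 and 809 (log2 ratio -0.39). MRPL22 had 2522 with siRNA-Tbet and 2382 with siRNAc (log2 ratio 0.08), and MRPL23 had 5628 and 5656 (log2 ratio -0.0071). Of the 8 genes at this site, 7 were within 1.1-fold on their chosen probe sets, the exception being MRPL47. MRPL39 had 6457 with siRNA-Tbet and 7102 with siRNAc (log2 ratio -0.14), with 0.45 on a second probe set of 232 and 170. MRPL17 had 2926 with siRNA-Tbet and 3213 with siRNAc (log2 ratio -0.14), and MRPL24 had 4104 and 4411 (log2 ratio -0.10).

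MRPL3, MRPL4 and MRPL16, whose bacterial homologues lie near the peptidyl transferase centre and the peptide tunnel, were close to equal. MRPL3 had 26364 with siRNA-Tbet and 26282 with siRNAc (log2 ratio 0.0045), MRPL4 had 0.02 and MRPL16 0.02. MRPL58, a peptidyl-tRNA hydrolase that rescues stalled ribosomes and is also part of the particle, had 3481 with siRNA-Tbet and 3441 with siRNAc (log2 ratio 0.02). MRPL15 had 30708 with siRNA-Tbet and 28781 with siRNAc (log2 ratio 0.09). The other MRPL genes not yet named, MRPL1, MRPL2, MRPL9, MRPL14, MRPL21, MRPL33, MRPL34, MRPL35, MRPL36, MRPL37, MRPL43, MRPL50, MRPL51, MRPL54, MRPL55 and MRPL57, had log2 ratios from -0.05 to 0.10.

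Within the large subunit the median log2 ratios were 0.02 for 30 genes with a homologue in bacteria and 0.03 for 18 without, and within the small subunit 0.09 for 15 with and 0.08 for 10 without. These classes were assigned from general knowledge of the family. MRPS18A and MRPS30 are in neither subunit's count, and MRPS18B, a paralogue of the bacterial type, was counted as without.

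Most members had log2 ratios within a spread taken from pairs of probe sets of 1 gene. The spread between the 2 brightest measured probe sets of a gene (SD of the difference of their log2 ratios divided by the square root of 2) was 0.20 over 3749 genes in the members' signal range. It compares probe sets on the same 2 arrays, so it holds no variation between cultures, and a shift common to both probe sets cancels. Differences in the transcripts that the probe sets read can add to it, and it includes dimmer second probe sets. Of the 75 members, 68 lay within this spread, 6 were higher by more and 1, MRPS31, was lower by more. How many other genes of that signal range pass it was not counted, so these counts allow no comparison with them. The quartiles of all 5826 measured genes in that range, -0.11 and 0.08, also lay within the spread. Lying within it is thus not particular to the members. The 6 were MRPS27, MRPS6, MRPS34, MRPS12, MRPS10 and MRPL32. MRPL32 passed narrowly, with 0.21 on the log2 scale, and was within the spread at 0.19 after quantile normalization and after removal of the lowess trend. The spread was 0.21 among the members with at least 2 measured probe sets, and 0.26 among the MRPL genes of these, so MRPL32 lay within both.

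The probe sets of a member often disagreed in direction. Of 31 members with at least 2 measured probe sets, 5 had all of them higher, 3 all lower and 23 had both. The 5 were MRPL4, MRPL42, MRPL47, MRPL50 and MRPS23, and the 3 were MRPL41, MRPS11 and MRPS18B. The same counts over other genes with several measured probe sets were not made, so these are not shown to be particular to the members. That also holds for the 2 members with all measured probe sets at least 1.1-fold to 1 side. The 2 brightest probe sets lay on the same side in 11 of the 31 members (35.5%), against 57.9% of the genes in that signal range. The second probe sets of these 31 members had a median log2 ratio of -0.072, with 12 higher, whereas the chosen ones of the same genes had 0.04.

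Over every measured probe set of the members, 72 were higher and 56 lower, while 48.4% of all measured probe sets with 1 gene were higher and 51.6% lower. The remaining 12 member probe sets were below the floor on both arrays.

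**Figure D4:**
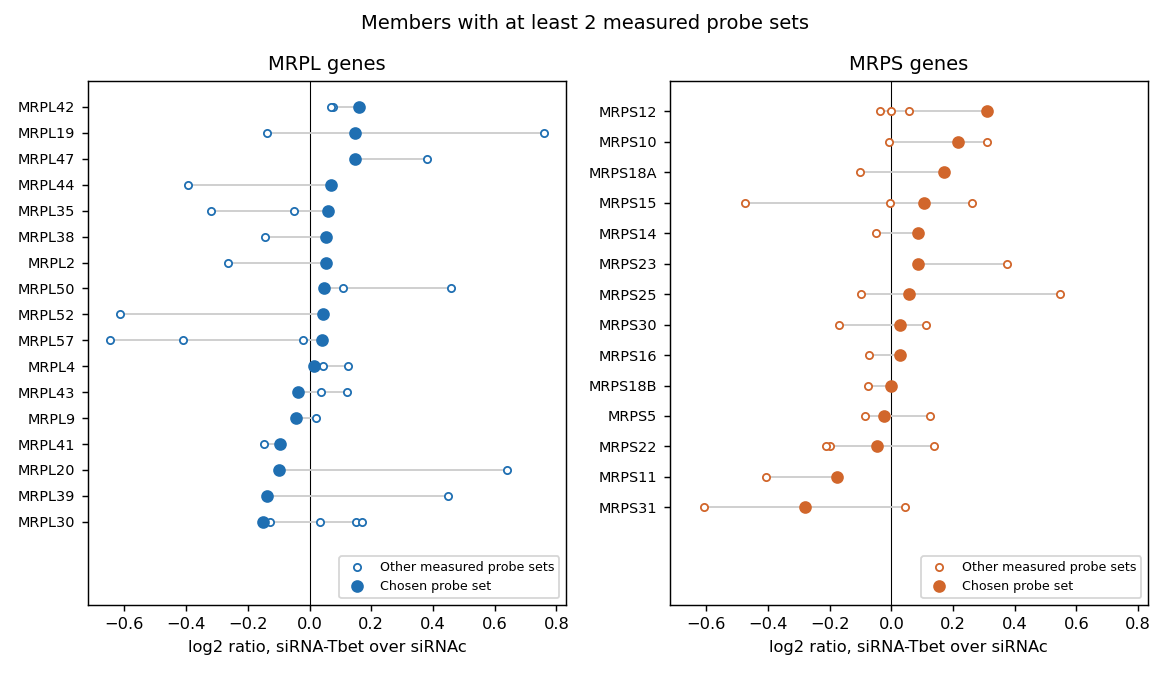
Log2 ratios of siRNA-Tbet over siRNAc (horizontal) of all measured probe sets of the 31 members with at least 2, MRPL genes on the left and MRPS genes on the right. Filled points are the chosen probe sets, open points the others, and grey lines join the probe sets of a gene. In 23 of the 31 genes the points fall on both sides of 0. The same count over other genes was not made.

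Many members have pseudogenes, which probes may read as well. RefSeq lists at least 1 for 39 of the 75 members, with 9 for MRPS21 and 8 for MRPL57. The median log2 ratio was 0.05 over these 39 genes and 0.02 over the 36 without one. MRPS27, MRPS34 and MRPS12 have 0 listed and MRPS6 has 3. The part of pseudogene transcripts in the signals was not tested.

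Several members lie head to head with a gene on the other strand. In RefSeq, 18 of the 67 members with an upstream window had a protein-coding neighbour that starts within 1000 bases upstream on the opposite strand. Of the 16 such pairs with both genes measured, 6 lay on the same side of 0 and 10 on opposite sides. The same shares over all head-to-head genes were not computed. On the same side lay MRPL37 with CYB5RL, MRPS2 with PIERCE1 and MRPL50 with ZNF189, all higher. MRPL40 with HIRA, MRPL54 with APBA3 and MRPS18B with PPP1R10 were all lower. The partners in these 6 pairs had log2 ratios from -0.22 (PPP1R10) to 0.77 (CYB5RL). MRPS27 (log2 ratio 0.38) faces PTCD2, a mitochondrial RNA-processing protein, which had 1137 with siRNA-Tbet and 1497 with siRNAc (log2 ratio -0.40). MRPS12 (0.31) faces SARS2, the mitochondrial seryl-tRNA synthetase, which had -0.18. MRPL49 (-0.18) faces FAU, a cytosolic ribosomal protein, which had 46762 with siRNA-Tbet and 42646 with siRNAc (log2 ratio 0.13). MRPL46 (0.02) and MRPS11 (-0.18) face each other.

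Of the mitoribosomal proteins whose symbols do not follow the MRP pattern, 4 of 5 were measured, 3 higher and 1 lower. DAP3, a GTP-binding protein of the small subunit's head, had 11580 with siRNA-Tbet and 9295 with siRNAc (log2 ratio 0.32), but -0.14 and 0.20 on its other probe sets. GADD45GIP1, of the large subunit, had 3102 with siRNA-Tbet and 2673 with siRNAc (log2 ratio 0.21), but -0.10 on its second. PTCD3, which guides messages to the small subunit, had 5974 with siRNA-Tbet and 5912 with siRNAc (log2 ratio 0.02), and 0.01, 0.07 and -0.18 on its other probe sets. CHCHD1, of the small subunit, had 8353 with siRNA-Tbet and 8669 with siRNAc (log2 ratio -0.05).

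Genes that assist the mitochondrial ribosome had medians on both sides of 0. The 22 measured assembly factors had a median log2 ratio of 0.02, 13 being higher and 9 lower. MRM1, a methyltransferase of the large ribosomal RNA, had 584 with siRNA-Tbet and 436 with siRNAc (log2 ratio 0.42), and RPUSD4, a pseudouridine synthase, had 3407 and 2824 (log2 ratio 0.27). YBEY, an endonuclease, had 812 with siRNA-Tbet and 928 with siRNAc (log2 ratio -0.19), and 0.14 and -0.57 on its other probe sets. DHX30, a helicase, had 5454 with siRNA-Tbet and 6237 with siRNAc (log2 ratio -0.19), and -0.08, 0.11, 0.16 and -0.23 on its others.

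Among 14 measured translation factors the median was -0.04, 6 being higher and 8 lower. MTRFR, a rescue factor, had 1835 with siRNA-Tbet and 1596 with siRNAc (log2 ratio 0.20, and 0.02 on its second probe set). SLIRP, which stabilises mitochondrial messages, had 21213 with siRNA-Tbet and 18480 with siRNAc (log2 ratio 0.20). MTIF3, an initiation factor, had 1222 with siRNA-Tbet and 1503 with siRNAc (log2 ratio -0.30), and MTFMT, which formylates the initiator methionine, had 1095 and 1300 (log2 ratio -0.25).

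The 18 measured genes that charge mitochondrial tRNAs (synthetases and amidotransferase subunits) had a median of -0.05, 8 being higher and 10 lower. PARS2, which charges proline, had 491 with siRNA-Tbet and 830 with siRNAc (1.69-fold lower, log2 ratio -0.76). LARS2, for leucine, had 2454 with siRNA-Tbet and 3141 with siRNAc (log2 ratio -0.36), but -0.02 on its second probe set. WARS2, for tryptophan, had 1335 with siRNA-Tbet and 1117 with siRNAc (log2 ratio 0.26, and 0.21 on its second probe set), and VARS2, for valine, had 4153 and 3708 (log2 ratio 0.16).

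For 12 genes of mitochondrial transcription and RNA processing the median was 0.06, 7 being higher and 5 lower. TEFM, an elongation factor, had 1847 with siRNA-Tbet and 1589 with siRNAc (log2 ratio 0.22), but -0.06 on its second probe set. MTERF1, a termination factor, had 1247 with siRNA-Tbet and 1074 with siRNAc (log2 ratio 0.22). MTPAP, the poly(A) polymerase, had 2626 with siRNA-Tbet and 2904 with siRNAc (log2 ratio -0.15) and was lower on all 4 measured probe sets. PRORP, the nuclease subunit of RNase P, had 317 with siRNA-Tbet and 346 with siRNAc (log2 ratio -0.12). Of 5 measured mitochondrial proteases 3 were higher, with a median of 0.04. CLPP had 5297 with siRNA-Tbet and 4121 with siRNAc (log2 ratio 0.36). Its chaperone partner CLPX had 4562 with siRNA-Tbet and 5299 with siRNAc (log2 ratio -0.22), but 0.06 on its second probe set. YME1L1 had 12153 with siRNA-Tbet and 11704 with siRNAc (log2 ratio 0.05), and 2 of its 6 measured probe sets were higher. AFG3L2 had 17005 with siRNA-Tbet and 17207 with siRNAc (log2 ratio -0.02), and -0.10 and 0.60 on its others.

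Among 10 measured regulators of mitochondrial biogenesis the median was -0.03, 3 being higher and 7 lower. MYC had 35926 with siRNA-Tbet and 29515 with siRNAc (log2 ratio 0.28), and GABPB1, a GABP subunit, had 2790 and 2597 (log2 ratio 0.10), but -0.09 on its second probe set. YY1 had 19379 with siRNA-Tbet and 21172 with siRNAc (log2 ratio -0.13) and was below 0 on all 6 measured probe sets. ESRRA, a nuclear receptor, had 2148 with siRNA-Tbet and 2538 with siRNAc (log2 ratio -0.24), and -1.01 on its second.

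**Figure D5:**
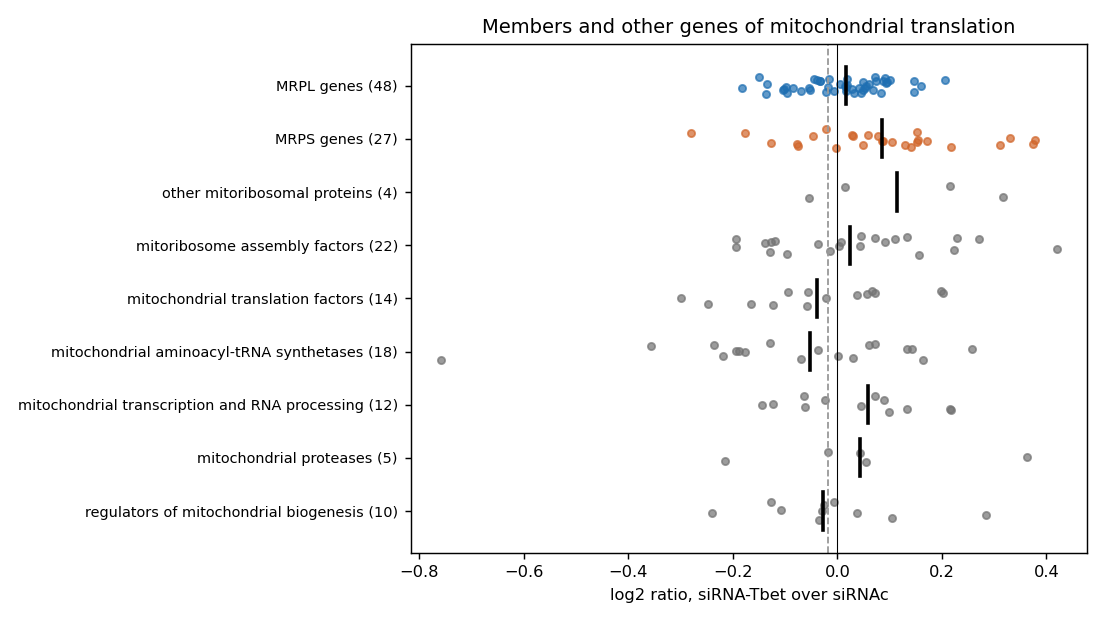
Log2 ratios of siRNA-Tbet over siRNAc (horizontal) for the members and for other gene lists of mitochondrial translation, 1 point per measured gene, with the number of genes after each name. Black bars are medians, the solid line is 0 and the dashed line the median of all measured genes (-0.02). The medians run from -0.05 (aminoacyl-tRNA synthetases) to 0.11 (other mitoribosomal proteins, 4 genes).

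Set beside other families chosen by symbol, the mitochondrial ribosomal proteins had ratios nearer to those of the respiratory chain than to those of the cytosolic ribosome. Of the 75 members 47 were higher, with a median of 0.03. Of 73 measured nuclear-encoded respiratory chain and ATP synthase subunits 47 were higher (64.4%), with a median of 0.05. Of 53 measured cytosolic ribosomal proteins 51 were higher (96.2%), with a median of 0.14. The families were not matched for signal level. In decile 10, the brightest, 65.5% of all genes were higher, against 46.4% of all measured genes. With 1 array per group, no test of the differences between families was possible.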

How the data were processed

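Gene expression was measured in KG1 cells on 2 Affymetrix arrays, 1 per group, made from 1 µg of total RNA each, per the labels. The authors deposited linear intensities for each probe set, made with MAS5 per the submitters' processing notes, with no version given in the sources used here. MAS5 subtracts mismatch signal, which makes dim values noisy. With 2% of the values trimmed from either end, the mean was 1000 on both arrays, and no further scaling was applied.

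Genes were taken from the platform annotation. Of 54675 probe sets 41097 had 1 gene, 1801 had several (3 of them with a member's symbol, left out) and 11777 had none. All 75 members matched the RefSeq table of GRCh38.p14, which also supplied the upstream windows. Each gene was read by the probe set whose mean log2 signal was highest, those of the suffix _x_at last. Log2 ratios are siRNA-Tbet over siRNAc, with signals raised to a floor at the higher of the array medians over non-control probe sets. Lists are described by counts and medians. The sizes counted were 1.1-fold, 25% higher or 20% lower, and 1.5-fold.

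The members and lists were chosen with earlier results of these data known. Every member could be named. Full values went to TBX21, to the 8 members with the highest and the 8 with the lowest ratio, to members whose measured probe sets all lay at least 1.1-fold to 1 side, to those of the sites listed, and to the 2 highest and 2 lowest genes of each other list. The head-to-head neighbours of members, PTCD2, SARS2 and FAU among them, were named after their values were seen. Alternatives were other scalings, a lowess trend (span 0.3), floors, filters, probe set choices, updated symbols and subunit by structure. The procedure was tested on simulated data. Python 3.11.15, pandas 2.3.3, scipy 1.17.1 and statsmodels 0.14.6 were used for the analysis and matplotlib 3.10.9 for the figures.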

Additional observations from a re-analysis of the deposited data

How the results depend on the processing

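The MRPL and MRPS medians stayed above 0 under 11 of 12 alternatives, and the median of all members under 10 of the 11 computed for it. The exception was the second-brightest measured probe set (17 MRPL and 14 MRPS genes). There the medians were -0.13 for MRPL, -0.061 for MRPS and -0.072 for all members. The share of members higher was 38.7%, with 4 members at least 25% higher and 4 at least 20% lower. The cause was not tested; this alternative reads fewer genes by dimmer probe sets. With plain probe sets alone, MRPL minus MRPS was 0.0038, 5 members were at least 25% higher and 1 at least 20% lower, over 42 genes. Quantile normalization and the lowess trend gave MRPL minus MRPS of -0.07 each, and 3 members each at least 25% higher. Scaling to equal medians gave 4 such members. It shifts every member's log2 ratio by the same amount, so it could not change MRPL minus MRPS and is no check of it. The choice of probe set turned single members: on the second-brightest one MRPS12 had -0.0017, MRPS18A -0.10, MRPS31 0.04 and MRPL39 0.45, and the median over probe sets of MRPL30 was 0.03. The floors, the filter on mean signal and updated symbols left the members' values as reported, so counting them among the 12 alternatives adds nothing to the check. No paired analysis was possible because each group holds 1 array, and no replicate could be left out.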
